A study of Mus musculus with 72 samples.

Results

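The fatty acid binding protein genes Fabp1, Fabp2, Fabp4, Fabp5 and Fabp7 were followed in mouse liver and in the suprachiasmatic nucleus (SCN), the master clock of the brain, in the hypothalamus. The 5 genes were taken by symbol as members of the family, with earlier results of these data known. They are 5 of the 24091 genes with a row in the liver or the SCN table of gene counts. All 5 were measured in liver, among 22823 genes, and all 5 passed the filter on low counts that left 20249 genes for testing. Fabp4, Fabp5 and Fabp7 were measured in the SCN, among 15759 genes, and all 3 passed the filter there. Fabp1 and Fabp2 were analysed in liver only.

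The series holds 72 libraries, 36 of each tissue. C57BL/6 mice of 8 to 12 weeks, housed singly, had free access for 11 days to a diet free of methionine and choline (MCD) or to an isocaloric control diet. Both diet groups lived for 10 days under a light-dark cycle and spent the last day in constant darkness, and they were killed at 6 circadian times (CT) 4 h apart, CT00 being the first and CT20 the last. Tissue, diet and time made 24 groups with 3 libraries each, from 2 males and 1 female. The female always carries replicate number 3, so sex and that number cannot be told apart, and the labels do not tie a liver library to an SCN library of the same mouse. The sample labels name these females although the protocol text speaks of male mice. In each table the 2 columns of control males at CT08 share a name, so those libraries are called control CT08 a and b. The MCD diet is a widely used model of fatty liver in which methionine and choline are both lacking, so their effects cannot be told apart here.

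Fatty acid binding proteins are small cytosolic proteins that hold a long-chain fatty acid or a related lipid inside a barrel of beta strands, carry it between membranes and enzymes, and can bring it to nuclear receptors. Fabp1 (liver type) is the abundant form of hepatocytes and binds bile acids and heme as well as fatty acids. Fabp2 (intestinal type) is best known from enterocytes. Fabp4 (adipocyte type) and Fabp5 (epidermal type) are close relatives that lie near each other on chromosome 3 and are both found in adipocytes, macrophages and endothelial cells. Fabp7 (brain type) is a marker of radial glia and astrocytes, and its mRNA is known to cycle over the day in mouse brain.

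In the GENCODE annotation of the mouse build GRCm38, used for positions and lengths only, Fabp1 (ENSMUSG00000054422.8) lies at chr6:71199827-71205023 on the plus strand and Fabp7 (ENSMUSG00000019874.12) at chr10:57784881-57788450 on the plus strand. Fabp5 (ENSMUSG00000027533.11, chr3:10012548-10016607, plus strand) and Fabp4 (ENSMUSG00000062515.4, chr3:10204088-10208576, minus strand) share a stretch of chromosome 3 with the related genes Pmp2, Fabp9 and Fabp12. Fabp2 (ENSMUSG00000023057.6) lies at chr3:122895072-122899506 on the plus strand and overlaps 1 antisense gene, 4933405D12Rik. Strand use in counting is not given in the sources used here, and antisense reads may be included in the Fabp2 counts.

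RefSeq promoter sequences were given for 3 of the 5 members, Fabp1, Fabp2 and Fabp7. Those of Fabp1 and Fabp7 are shown, 5' to 3' on the plus strand of GRCm38.p6, because Fabp1 was the most abundant member in liver and Fabp7 was the member with the largest daily rhythm. Both 250-base windows before the RefSeq start held the half-site AGGTCA, the core letters read by many nuclear receptors, and each stretch ends just before the start of the gene in GENCODE.
Fabp1 promoter, chr6:71199629-71199826: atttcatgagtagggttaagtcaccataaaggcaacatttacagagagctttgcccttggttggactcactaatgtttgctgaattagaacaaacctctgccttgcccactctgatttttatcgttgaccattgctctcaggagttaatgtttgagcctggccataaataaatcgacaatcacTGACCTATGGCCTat
Fabp7 promoter, chr10:57784673-57784880: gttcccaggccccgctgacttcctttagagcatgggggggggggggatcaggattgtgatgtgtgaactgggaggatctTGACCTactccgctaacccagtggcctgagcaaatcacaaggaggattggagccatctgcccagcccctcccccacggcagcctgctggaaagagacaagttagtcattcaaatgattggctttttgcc
Capitals mark the matches within the printed stretches. In Fabp7 they are 1 half-site on the opposite strand, at position -171 from the RefSeq start. In Fabp1 they are a longer match on the opposite strand, at position -67, to a direct repeat of the half-site with 1 base between the copies and any base allowed at position 4 of the first. The Fabp1 window holds 1 more half-site, between the printed stretch and the RefSeq start. That pattern was written down after the sequence had been seen, and 27 of 32851 RefSeq promoter windows (0.0822%) hold it. The half-site alone is in 14.0% of the same windows, on either strand, and is part of the longer pattern. The letters CACGTG (E-box, in 6.02% of windows) and CACGTT (in 3.85%) were in none of the 3 windows of the members, nor was the D-box (TTATGTAA or TTACGTAA, in 0.931%). The Fabp2 window held none of the motifs searched. These matches describe letters in a window, not sites at which a factor was measured.

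Liver libraries held 52600280 to 86740552 counts and SCN libraries 23347789 to 79812461 counts. Levels are given as CPM, a gene's counts relative to the total of its library, scaled by edgeR's TMM factors within a tissue. The tissues carried their defining markers: on the control diet Alb averaged 73124 CPM in liver and 5.76 in the SCN, while Vip (1011 CPM) and Six6 (194 CPM) marked the SCN. In liver, 3 male libraries stood apart. MCD CT04 1 and MCD CT12 2 had the 2 highest Kupffer cell and macrophage marker sums of the MCD diet, 801 and 810 CPM against a median of 502, and the 2 lowest hepatocyte marker sums, 54753 and 60597 CPM against a median of 97475. Control CT08 a had the highest macrophage marker sum of the control diet, 683 CPM against a median of 369. Members that these libraries touch are given with and without them. In bulk tissue, fewer cells of a type and less RNA per cell cannot be told apart. Liver libraries also fell into 2 kinds by the level of the mitochondrial transcript mt-Nd6, with 8 low and 10 high on the control diet and 13 low and 5 high on MCD.

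Comparison between genes was made per kilobase of exon, since a longer transcript collects more reads. In control liver Fabp1 averaged 5201 ± 1243 CPM per kilobase (SD, n = 18), far above Fabp5 at 84.4 ± 39.7 and Fabp2 at 63.3 ± 14.5. Fabp4 followed at 6.44 ± 1.45 and Fabp7 at 1.75 ± 0.797. Fabp5 and Fabp2 were the only neighbours in this order whose ranges overlapped within 1 SD. On the MCD diet Fabp5 moved down this order, below Fabp2 and Fabp4. Fabp1 stayed highest at 2874 ± 1181 CPM per kilobase, followed by Fabp2 at 76.7 ± 10.2. Fabp4 at 7.73 ± 3.72 and Fabp5 at 6.59 ± 3.93 came next, and Fabp7 at 3.03 ± 1.74 was lowest. The values of Fabp4 and Fabp5 on MCD lay within 1 SD of each other, as did those of Fabp5 and Fabp7. In the control SCN Fabp5 at 61.2 ± 10.4 and Fabp7 at 56.6 ± 34.6 CPM per kilobase were within 1 SD of each other and Fabp4 was low at 2.76 ± 2.53. On MCD the SCN values were 60.1 ± 11.3 for Fabp5, 46.0 ± 26.2 for Fabp7 and 2.89 ± 1.93 for Fabp4, the same order. The lengths used, 553 to 1250 bases, are those of the joined exons of the protein-coding transcripts in GENCODE.

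**Figure D1:**
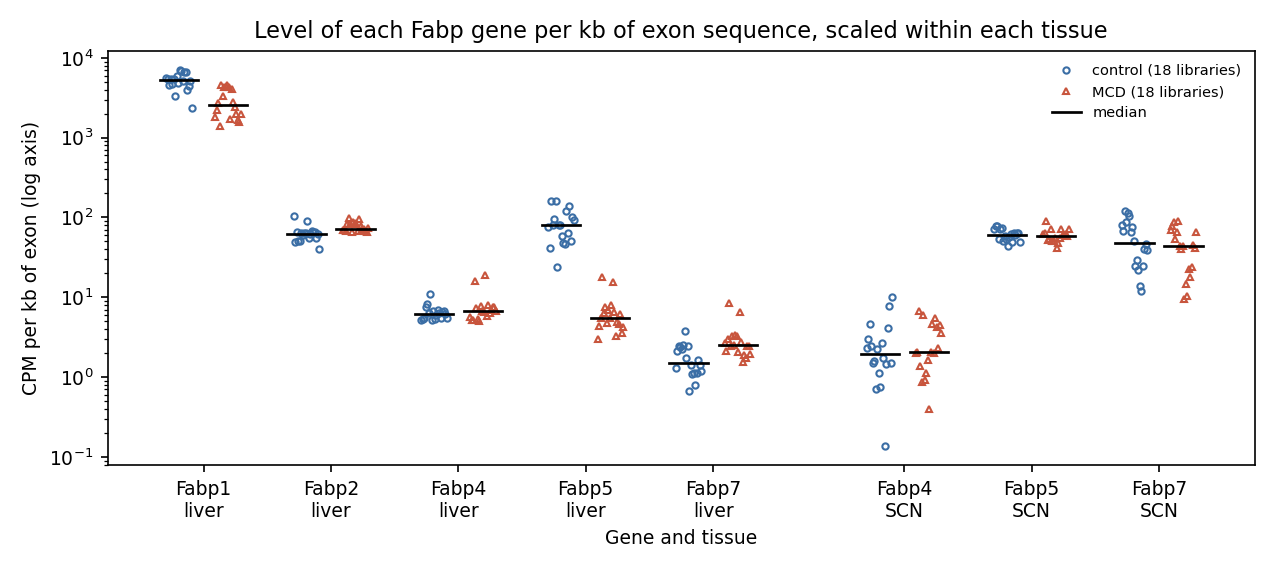
CPM per kilobase of exon (log axis) of each member in every library, by tissue and diet; bars are medians. Fabp1 is the highest member in liver on both diets, and Fabp5 drops from the level of Fabp2 on the control diet to that of Fabp4 on MCD.

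Averaged over the day, the MCD diet changed 4 of the 5 members in liver by edgeR's quasi-likelihood test (adjusted p under 0.05 over all genes), Fabp5 and Fabp1 downward and Fabp7 and Fabp2 upward. Of all genes tested in liver, 46.6% were called in the same comparison, and a count over 5 members is read only beside that share. The median log2 change was 0.23 over the 5 members and 0.02 over all genes. The members thus moved in both directions, by sizes from 13.0-fold lower to 1.75-fold higher. Called genes split into 5130 higher and 4296 lower. With library totals as the only scaling the median of all genes moved to 0.27 and 10633 of 12173 called genes were higher, and the 4 members kept their directions (Fabp5 -3.41, Fabp1 -0.65, Fabp7 1.08, Fabp2 0.54). Within the libraries of low mt-Nd6 the changes were -3.72, -0.82, 0.83 and 0.16 in the same order, and within those of high mt-Nd6 -3.09, -1.15, 1.03 and 0.49. Log2 changes below are MCD minus control.

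Fabp1, the main fatty acid carrier of the hepatocyte, ranged from 1285 to 3942 CPM in the 18 control livers, with a median of 2902. On MCD it ranged from 770 to 2526 CPM with a median of 1419. The ranges overlapped, with 10 of 18 MCD libraries inside the control range, but the MCD median lay near the bottom of the control values. Fabp1 fell by 0.90 ± 0.14 on the log2 scale (SE, edgeR adjusted p = 7.32e-06), which is 1.87-fold lower. Without MCD CT04 1 and MCD CT12 2, where it read 770 and 942 CPM, the log2 change was -0.79. Without control CT08 a as well it was -0.82. Of 5 hepatocyte markers 4 fell, with a median log2 change of -0.35, and Alb, the most abundant, was not called (0.14). With library totals as the only scaling 2 fell and 1 rose, and without the 2 MCD libraries 4 fell and 1 rose. Their summed level had a median of 97470 CPM on control (78496 to 118277) and 97475 CPM on MCD (54753 to 118977). The part of these markers in the Fabp1 result was not tested.

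Fabp2, the intestinal form, was far lower than Fabp1 in liver. It ranged from 39.0 to 101 CPM on control (median 60.3) and from 62.8 to 94.2 CPM on MCD (median 70.1). All 18 MCD values lay inside the control range, because control CT00 1 read 101 CPM. At 4 of the 6 times all 3 MCD libraries were above all 3 control libraries. Fabp2 rose by 0.28 ± 0.08 on the log2 scale (edgeR adjusted p = 0.00469), or 1.22-fold. This call was lost without the females (0.22) and within the libraries of low mt-Nd6 (0.16). Of 6 enterocyte markers 1 was analysed in liver, Vil1, at 0.327 ± 0.142 CPM on control and 0.540 ± 0.397 CPM on MCD (SD, n = 18), near 0 on both diets.

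Fabp5, a carrier that is also linked to PPAR signalling, showed the largest change of the family. It ranged from 24.0 to 159 CPM on control, with a median of 78.7, and from 2.99 to 17.5 CPM on MCD, with a median of 5.42. No MCD liver reached the lowest control liver, so the diets did not overlap. Fabp5 fell by 3.70 ± 0.21 on the log2 scale (edgeR adjusted p = 2.32e-12), a 13.0-fold difference. The 2 MCD libraries with the highest macrophage markers were also the 2 highest for Fabp5 on MCD, at 17.5 and 15.3 CPM, and the next highest read 7.89. Control CT08 a, with the highest macrophage marker sum on control, was the lowest control library for Fabp5 at 24.0 CPM. Control CT08 b read 79.3 CPM and the female of that group 78.4 CPM. How Fabp5 and the macrophage marker sum went together over all control livers was not tested, and this library alone does not show it. Without the 2 MCD libraries the log2 change was -3.91, and without all 3 it was -3.97. Fabp5 fell while the macrophage list rose, 7 of its 8 members upward with a median log2 change of 0.41.

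Fabp4, the adipocyte and macrophage form, ranged from 4.59 to 9.96 CPM on control (median 5.59) and from 4.56 to 17.1 CPM on MCD (median 6.06). Of the 18 MCD libraries 15 lay inside the control range. The log2 change of 0.23 ± 0.14 did not pass the test (edgeR adjusted p = 0.177), and its 95% interval ran from -0.04 to 0.49. The extremes were the libraries that stood apart: 17.1 CPM in MCD CT12 2, 14.3 in MCD CT04 1 and 9.96 in control CT08 a, with the other MCD libraries at 7.18 or below. Without the 2 MCD libraries the log2 change was 0.00, and without all 3 it was 0.06. With library totals as the only scaling Fabp4 was called higher, by 0.49. The level of the adipocyte markers was not analysed here.

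Fabp7, the brain form, was low in liver, where single libraries held 50 to 916 counts. It ranged from 0.825 to 4.79 CPM on control with a median of 1.90, and from 1.94 to 10.5 CPM on MCD with a median of 3.15. Of the 18 MCD libraries 16 lay inside the control range, and the mean was higher on MCD at 6 of 6 times. Fabp7 rose by 0.81 ± 0.16 on the log2 scale (edgeR adjusted p = 0.000167), or 1.75-fold. The libraries that stood apart again held the extremes, 10.5 CPM in MCD CT04 1, 8.17 in MCD CT12 2 and 4.79 in control CT08 a. Without the 2 MCD libraries the log2 change was 0.56 and without all 3 it was 0.63, both still called. Of 6 astrocyte markers in liver 2 rose, Aqp4 from 8.47 to 25.0 CPM (1.73) and Gja1 by 0.62, and 2 fell, Aldh1l1 by 0.88 and Aldoc by 0.48, while the defining marker Gfap was at 0.341 CPM on control and was not called. Of 5 microglia markers 4 rose, of 3 oligodendrocyte precursor markers 2 rose, and none of either list fell. Of 4 oligodendrocyte markers 1 rose, Mbp (0.51), and 1 fell, Cnp (-0.64). These counts stand beside the 46.6% of all genes called in liver. The 4 microglia calls became 1 without MCD CT04 1 and MCD CT12 2, without replicate 1 or without replicate 2, and 2 with no sex term or within the libraries of low mt-Nd6. The 2 precursor calls became 1 without replicate 3 and 0 within the libraries of low mt-Nd6. These lists name brain cell types, and their genes need not mark glia in liver. Aldh1l1 averaged 1293 CPM in control liver and 46.9 CPM in the control SCN, each scaled within its tissue. The part of these lists in the Fabp7 result was not tested.

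**Figure D2:**
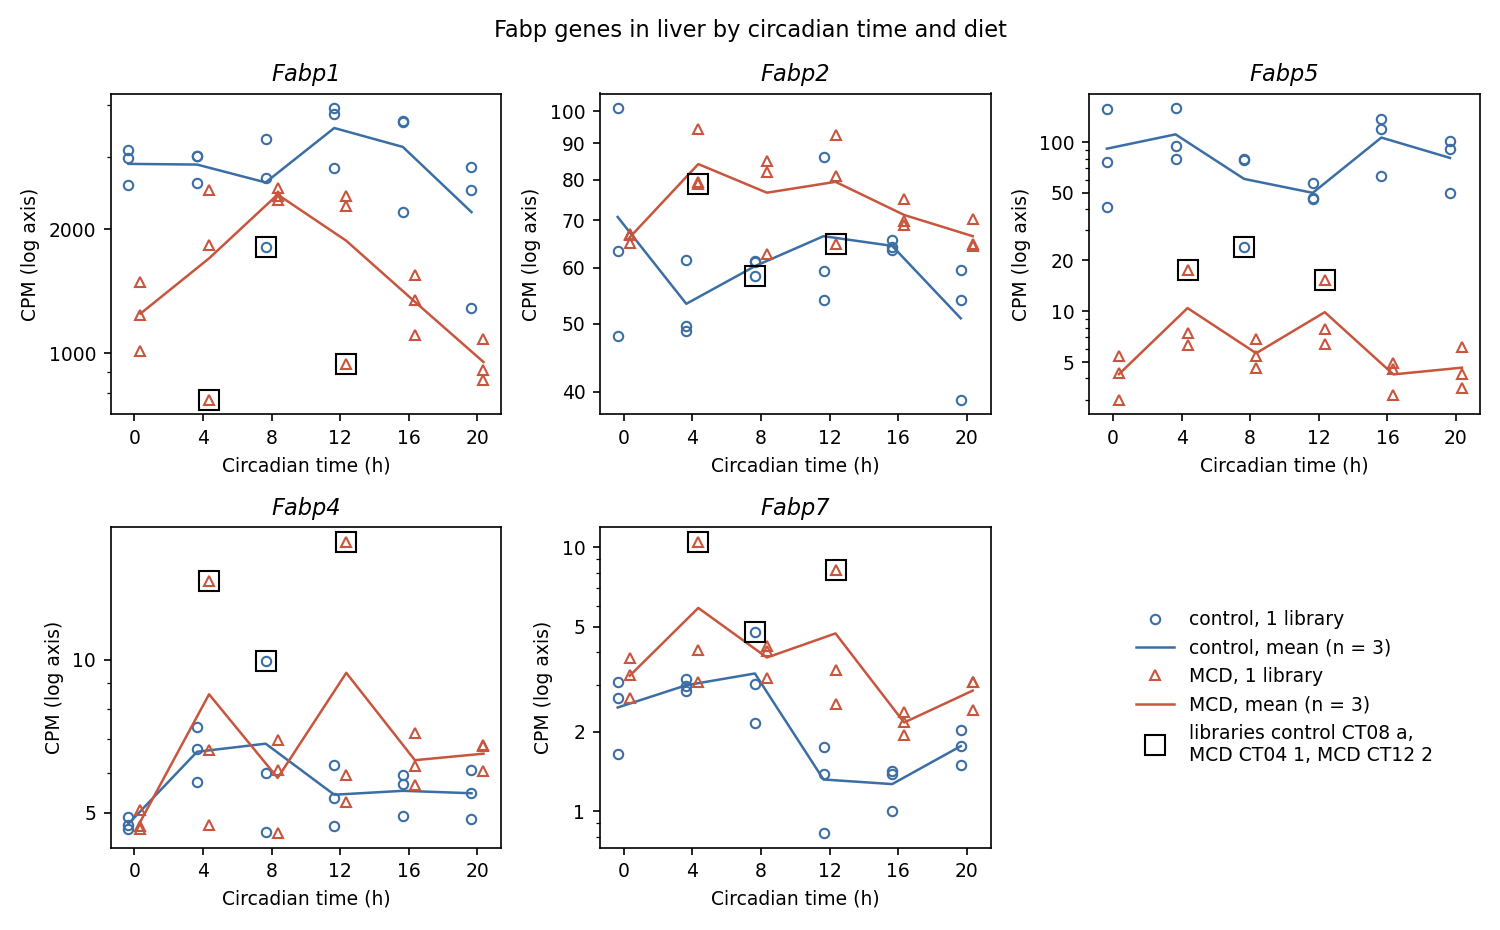
CPM (log axis) of the 5 members in each of the 36 liver libraries against circadian time, by diet; the boxed points are control CT08 a, MCD CT04 1 and MCD CT12 2. Fabp5 on MCD lies below every control library, and the boxed MCD points are the 2 highest MCD values of Fabp4, Fabp5 and Fabp7.

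The macrophage lists were higher in liver on MCD. Beside the 7 of 8 Kupffer cell and macrophage markers that rose, 4 of 5 measured lipid-associated macrophage markers rose, with a median log2 change of 1.77, among them Trem2, which rose from 1.08 to 4.77 CPM. The lipid-associated sum ranged from 31 to 111 CPM on control (median 44.9) and from 38.3 to 179 CPM on MCD (median 61.7). MCD CT04 1 held 179 CPM and MCD CT12 2 held 176 CPM of it, and control CT08 a held the control maximum of 111 CPM. Of the 8 Kupffer cell and macrophage markers 3 were called without replicate 1, without replicate 2 or within the libraries of low mt-Nd6, and 6 without the 2 MCD libraries. Of the 5 lipid-associated markers 3 rose in each of these 4 settings, and 1 fell without replicate 2 or without the 2 MCD libraries. Spp1, the marker of this list that did not rise, read 26.6 CPM on control and 23.3 CPM on MCD (-0.19, edgeR adjusted p = 0.051). All these counts stand beside 46.6% of all genes called. Of 8 endothelial markers 3 rose and 1 fell, with a median log2 change of 0.00, while with library totals as the only scaling 6 rose and none fell, with a median of 0.26. The part of these cell types in the levels of Fabp4, Fabp5 and Fabp7 was not tested.

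At single times the diet effect was tested on 3 libraries against 3, in the fit of all 36. Fabp5 was called at all 6 times and lay below control in every library at each. With a whole replicate left out its call was lost at CT08 without replicate 1 (-3.31, edgeR adjusted p = 0.0638) or replicate 3 (-3.17, 0.0614). At CT12 it was lost without replicate 1 (-2.04, 0.0935) or replicate 2 (-2.86, 0.0557). Control CT08 a and b carry no replicate number, and both were kept in these runs. Its control values at CT16 were 119, 63.2 and 137 CPM, against 3.20, 4.91 and 4.56 CPM on MCD, the largest log2 change of the 6 at -4.64 ± 0.54 (edgeR adjusted p = 1.73e-05). At CT12 control values of 57.3, 46.8 and 46.2 CPM stood against 7.89, 15.3 and 6.38 CPM on MCD, the smallest change at -2.32 ± 0.48. Of all genes 1.3% were called at CT08, 11.3% at CT20, 12.5% at CT16, 12.6% at CT00, 15.2% at CT12 and 18.2% at CT04. Fabp5 was the 1 member called at CT08. The 263 genes called at CT08 became 383 without MCD CT04 1 and MCD CT12 2 and 1904 without control CT08 a as well, when the other times had 2330 to 4126.

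Fabp1 was called lower at CT00, CT16 and CT20, with log2 changes of -1.20, -1.25 and -1.20, each ± 0.34. At CT20 the control livers read 2489, 2831 and 1285 CPM and the MCD livers 910, 859 and 1084 CPM. At CT08 the diets came closest: control libraries read 1816, 3317 and 2667 CPM and MCD libraries 2404, 2358 and 2526 CPM, a log2 change of -0.10 ± 0.34. CT08 was the 1 time of 6 at which the MCD libraries were not all below the control libraries. Fabp2 was called at CT04 alone among the 6 times, where control livers read 48.8, 49.6 and 61.6 CPM and MCD livers 78.9, 94.2 and 79.3 CPM (log2 change 0.66 ± 0.20, edgeR adjusted p = 0.0207). Fabp7 was called at CT12 alone, where control livers read 0.825, 1.75 and 1.38 CPM and MCD livers 2.55, 8.17 and 3.42 CPM (1.83 ± 0.40, adjusted p = 0.00372). Fabp4 was called at none. Several of these calls were lost with 1 library fewer, at changes of similar size except for Fabp7. Fabp1 was no longer called at CT00 without control 1 or 2 or MCD 1 or 2 of that time (edgeR adjusted p = 0.0517 to 0.105), at CT16 without control 1 or 2 or MCD 2 or 3 (0.0528 to 0.0842), and at CT20 without control 1 or 2 or MCD 1 or 2 (0.0776 to 0.113). Fabp2 at CT04 was not called without control 1 or 2 or MCD 2 (0.0689 to 0.0932), nor Fabp7 at CT12 without MCD 2 (1.16, 0.0698). Other members came to be called. At CT04 these were Fabp1 (-1.13, 0.0388) and Fabp7 (1.28, 0.028) without MCD 2. At CT12 they were Fabp4 without MCD 1 (1.01, 0.0494) or MCD 3 (1.03, 0.0462), and Fabp1 without MCD 3 (-1.12, 0.0497) or by DESeq2 (-0.91, 0.032). Across the single libraries left out, Fabp4 at CT12 ran from 0.04 to 1.03 and Fabp7 at CT04 from 0.25 to 1.28. Fabp1 ran from -1.13 to -0.40 at CT04 and from -1.12 to -0.57 at CT12. The highest MCD values were 17.1 CPM for Fabp4, in MCD CT12 2, and 10.5 CPM for Fabp7, in MCD CT04 1. With library totals as the only scaling Fabp2 was also called at CT12 (0.61, 0.0206) and CT20 (0.64, 0.0261), Fabp7 at CT04 (1.34, 0.0315) and Fabp4 at CT12 (1.18, 0.0285). Without the 3 libraries that stood apart Fabp7 was called at CT16 (0.76, 0.0262) and CT20 (0.68, 0.0449). Whether the effect differed between times was tested jointly, and none of the 5 members passed that test, against 0.909% of all genes, so the calls at single times do not show a dependence on time. The edgeR adjusted p of the joint test was 0.24 for Fabp5 and 0.437 or above for the other 4 members, and DESeq2 called Fabp5 (adjusted p = 0.0389) among 1348 of 15743 genes.

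**Figure D3:**
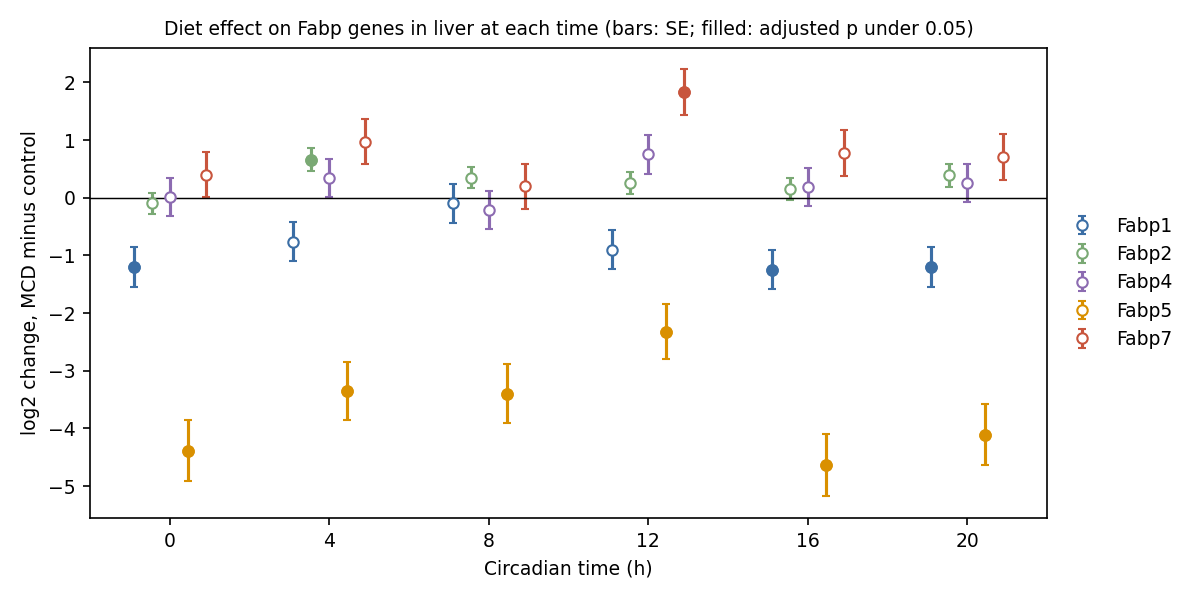
Log2 change (MCD minus control) ± SE of each member in liver at the 6 circadian times; filled points passed an adjusted p of 0.05 within their time. Fabp5 is filled at all 6 times, Fabp1 at 3, and Fabp2 and Fabp7 at 1 each.

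Daily rhythms were tested by the cosine and sine components of the 6 time means on each diet, with the range from trough to peak on the log2 scale. On the control diet 1 of the 5 members, Fabp7, was rhythmic in liver, against 17.8% of all genes. Its mean CPM was 3.00 ± 0.155 at CT04 and 1.27 ± 0.231 at CT16 (SD, n = 3). The mean was highest at CT08, 3.32 ± 1.34, where control CT08 a read 4.79 CPM. The fitted range was 1.44 with the peak at 4.0 h (edgeR adjusted p = 0.00879). This control call was lost without replicate 2 (0.0623) or replicate 3 (0.139). It was kept with any single library left out, at 1.33 to 1.53. On MCD, 2 of 5 members were rhythmic, against 28.2% of all genes. Fabp7 had a range of 1.07 with the peak at 6.0 h (adjusted p = 0.0353). This call was weak: the range was 0.68 without MCD CT04 1 and MCD CT12 2 (adjusted p = 0.0813), and the call was also lost without any 1 of 9 MCD libraries, namely CT04 1, CT08 2, CT08 3 and the 3 each of CT16 and CT20 (0.0533 to 0.144). Fabp1 had a range of 1.22 with the peak at 8.4 h (adjusted p = 0.00494), from 2429 ± 86.3 CPM at CT08 to 951 ± 118 CPM at CT20. This call was lost without replicate 1 (0.0548) or replicate 3 (0.0642). On control the fitted range of Fabp1 was 0.33 (adjusted p = 0.679).

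The difference between the rhythms of the diets was called for none of the 5 members, against 4.87% of all genes. For Fabp1 the size of the difference was 1.00 (edgeR adjusted p = 0.257), and for Fabp5 it was 1.66 (adjusted p = 0.15, and 0.0475 by DESeq2, which called 2023 of 15743 genes). Fabp1 passed this test once MCD CT04 1 and MCD CT12 2 were left out, with 1.23 (edgeR adjusted p = 0.0225), and with control CT08 a left out too, with 1.08 (adjusted p = 0.0271). The rhythm of Fabp1 on MCD alone is therefore not shown to be particular to that diet when all libraries are used.

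Sex did not separate the members in liver. None of the 5 was called between females and males, against 9.44% of all genes, and none had a diet effect that differed between the sexes, against 1.77%. Taken within each sex, the diet effect of Fabp1 and Fabp7 was called in males alone and that of Fabp2 in females alone. A call in 1 sex alone does not show a difference between the sexes. Fabp5 was lower on MCD in both sexes, with log2 changes of -3.44 ± 0.24 in males and -4.22 ± 0.35 in females. On control its mean was 69.4 ± 27.3 CPM in 12 males and 111 ± 46.4 CPM in 6 females. For Fabp1 the changes were -1.08 ± 0.16 in males and -0.53 ± 0.23 in females, a difference of 0.55 ± 0.28 (edgeR adjusted p = 0.443). The 95% intervals of these differences between the sexes were -1.54 to -0.02 for Fabp5 and 0.00 to 1.09 for Fabp1. Such intervals, here and elsewhere, are normal approximations from the SE. The edgeR test itself gave unadjusted p-values of 0.0542 for Fabp5 and 0.0604 for Fabp1.

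In the SCN none of the 3 members passed the test of the diet effect averaged over the day. Of all 15759 genes tested there, 10 did (0.0635%), and 746 had an unadjusted edgeR p under 0.05. The median log2 change was -0.03 over the 3 members and 0.00 over all genes. Fabp7 ranged from 14.9 to 152 CPM on control (median 60.6) and from 12.0 to 112 CPM on MCD (median 55.5), and 16 of 18 MCD libraries lay inside the control range. Its log2 change was -0.30 ± 0.09 (edgeR adjusted p = 0.422). Fabp5 ranged from 43.3 to 78.2 CPM on control and from 41.2 to 89.8 CPM on MCD, with a log2 change of -0.03 ± 0.06. The 95% interval for Fabp5 in the SCN, -0.15 to 0.08, did not reach the change seen in liver. Fabp4 held 9 to 304 counts a library and ranged from 0.121 to 9.01 CPM on control and from 0.355 to 6.02 CPM on MCD. Its log2 change was 0.11 ± 0.31, with an interval from -0.49 to 0.71.

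The rhythm of Fabp7 in the SCN was the largest of the family. From CT00 to CT20 its mean CPM on control was 112 ± 36, 127 ± 15.7, 80.4 ± 15.8, 31.8 ± 4.93, 21.0 ± 8.51 and 52.2 ± 4.80 (SD, n = 3 at each of the 6 times). On MCD the means were 98.7 ± 11.5, 87.6 ± 22.6, 53.7 ± 3.07, 14.5 ± 3.38, 27.0 ± 4.00 and 63.9 ± 16.7 CPM in the same order. Fabp7 was thus high in the first hours of the circadian day on both diets, and lowest at CT16 on control and at CT12 on MCD. The fitted range was 2.65 on the log2 scale with the peak at 3.0 h on control (edgeR adjusted p = 8.69e-11) and 2.61 with the peak at 1.2 h on MCD (adjusted p = 1.26e-10). Fabp5 was rhythmic too, by a smaller range of 0.44 with the peak at 0.4 h on control (adjusted p = 0.026) and 0.50 with the peak at 22.0 h on MCD (adjusted p = 0.0102). Its mean was 75.3 ± 4.55 CPM at CT00 and 53.6 ± 9.30 CPM at CT12 on control. The control call of Fabp5 was lost without a sex term (edgeR adjusted p = 0.0544), without control CT00 2 (0.0783), without control CT12 1 (0.116) and without replicate 1 (0.183) or replicate 2 (0.239). Its MCD call was lost without replicate 2 (0.105) or replicate 3 (0.0603). Fabp4 was called on neither diet, so 2 of 3 members were rhythmic on each, against 15.1% of all genes on control and 16.1% on MCD.

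**Figure D4:**
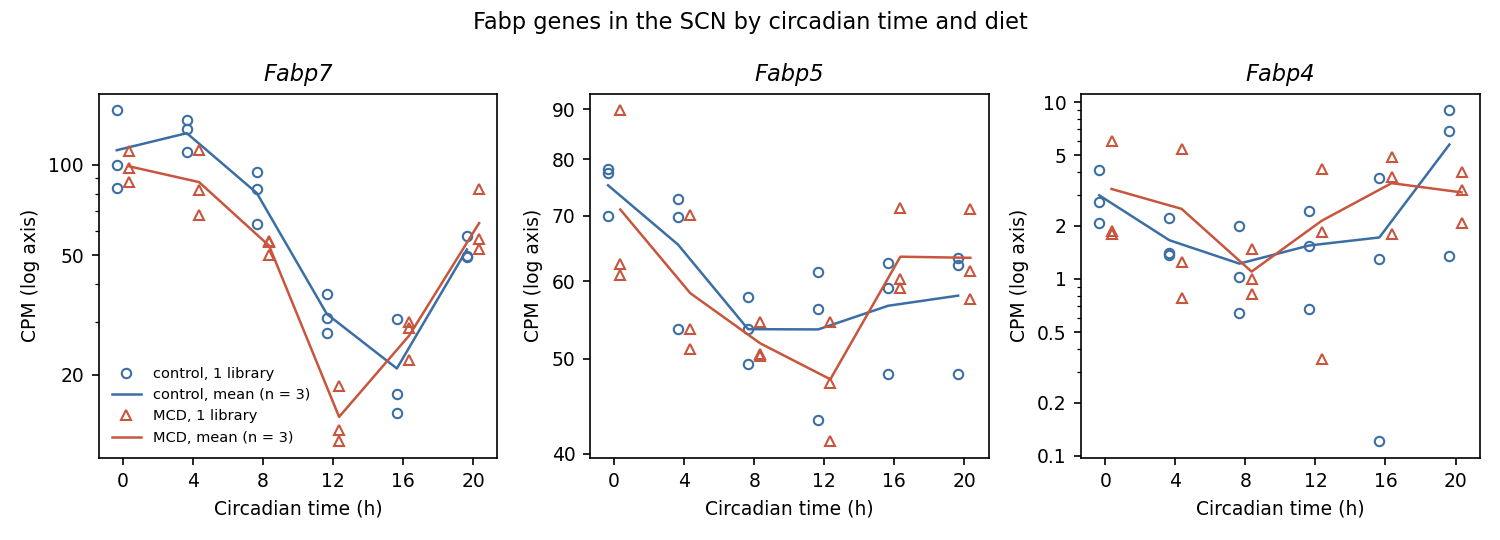
CPM (log axis) of Fabp7, Fabp5 and Fabp4 in each of the 36 SCN libraries against circadian time, by diet. Fabp7 is high at CT00 and CT04 on both diets, with MCD below control at CT12, and Fabp4 spreads widely within groups.

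On the log2 scale the 2 Fabp7 curves differed most at CT12, where control libraries read 30.8, 37.2 and 27.5 CPM and MCD libraries 12.0, 18.3 and 13.1 CPM. The 3 MCD libraries were all below the 3 control libraries, with a log2 change of -1.14 ± 0.23 (edgeR adjusted p = 0.183). At CT16 the order of the means was the opposite: control libraries read 17.3, 14.9 and 30.7 CPM and MCD libraries 28.6, 22.4 and 29.9 CPM, with overlapping values and a log2 change of 0.39 ± 0.22. At CT08 control libraries read 83.0, 94.8 and 63.5 CPM and MCD libraries 55.6, 50.2 and 55.4 CPM, again without overlap. Fabp7 did not pass the joint test of the diet effect by time (edgeR adjusted p = 0.838), nor the test of a difference in rhythm (size 1.22, adjusted p = 0.397). None of the 3 members passed either test, and each passed for 2 genes of the whole table (0.0127%). DESeq2 called both for Fabp7, with adjusted p-values of 0.00214 (among 11 of 13009 genes) and 0.0122 (among 8 of 11787). No other alternative run called either, and limma-voom gave adjusted p-values of 0.271 and 0.393. Among the glial markers of the SCN edgeR called 0 of 7 astrocyte, 0 of 6 oligodendrocyte, 0 of 4 oligodendrocyte precursor and 0 of 5 microglia markers for diet. DESeq2 called 1 lower in each of the first 3 lists, beside 48 of 15759 genes called in that run. The part of these cell types in the Fabp7 result was not tested. The astrocyte sum was 2459 to 3374 CPM on control and 2481 to 3399 CPM on MCD.

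None of the 3 members was called between females and males in the SCN, against 9.89% of all genes. Fabp4 came closest, with 3.48 ± 3.01 CPM in 6 females and 1.98 ± 1.74 CPM in 12 males on control (SD), and 4.01 ± 1.63 and 1.87 ± 1.33 CPM on MCD, a log2 difference of 0.99 ± 0.33 (edgeR adjusted p = 0.0532). DESeq2 and limma-voom called it (0.018 and 0.0196), as did edgeR with the replicate block (0.0286) or with library totals as the only scaling (0.0496). It was not called without replicate 1 (0.404) or replicate 2 (0.0782). The edgeR test also called it when any 1 of control CT04 3, CT08 b, CT08 3, CT12 2 or CT20 1 or of MCD CT16 2, CT16 3 or CT20 2 was left out (0.0277 to 0.0486). Fabp5 was called higher in females without control CT20 3 (0.20, 0.0223) or MCD CT16 3 (0.19, 0.043). None had a diet effect that differed between the sexes. No gene did in this edgeR test (0.0%), in which 826 genes had an unadjusted p under 0.05.

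The 3 members measured in both tissues were also compared in 1 fit of all 72 libraries over the 14491 genes shared by the tables. On control all 3 differed between liver and SCN, as did 90.4% of the genes. On the scale of that fit Fabp7 averaged 3.64 ± 1.66 CPM in liver and 59.2 ± 36.1 CPM in the SCN (SD, n = 18), a log2 difference of -3.76 ± 0.16. Fabp5 averaged 138 ± 65.3 CPM in liver and 50.6 ± 8.46 CPM in the SCN (1.34 ± 0.16). Its difference depended on the scaling and was 0.62, still called, with library totals alone. Fabp4 averaged 9.58 ± 2.17 and 2.06 ± 1.87 CPM (2.85 ± 0.28). The sizes moved for all 3 members across the alternatives and stayed called. They ran from -4.45 to -3.68 for Fabp7, from 0.62 to 1.48 for Fabp5 and from 2.15 to 3.29 for Fabp4. On control, then, Fabp7 was higher in the SCN, and Fabp5 and Fabp4 were higher in liver. On MCD Fabp5 averaged 10.8 ± 6.50 CPM in liver and 49.7 ± 9.38 CPM in the SCN, the reverse order.

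The diet effect itself differed between the tissues for 2 of the 3 members, against 34.7% of all genes. For Fabp5 the effect in liver minus that in the SCN was -3.67 ± 0.21 on the log2 scale (edgeR adjusted p = 6.36e-19). For Fabp7 it was 1.11 ± 0.19 (adjusted p = 6.6e-06), with a positive effect in liver and a negative, uncalled one in the SCN. For Fabp4 it was 0.11 ± 0.34 (adjusted p = 0.848). Fabp5 thus fell in liver alone in these data, and the difference from the SCN was itself called.

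Other genes that handle fatty acids were read from lists chosen with earlier results of these data known. Of 13 genes for fatty acid uptake and activation in liver, 3 rose and 5 fell, with a median log2 change of -0.37 against 0.02 over all genes. The share of all genes called was 46.6% for this and each further list in liver, and called shares near it are not a result about a list. Cd36, the scavenger receptor that takes up fatty acids, rose from 53.2 ± 33.4 to 139 ± 65.1 CPM (1.47 ± 0.18). Slc27a5, a fatty acid transporter that also activates bile acids, fell from 842 ± 168 to 351 ± 87.4 CPM (-1.26 ± 0.11), and the acyl-CoA synthetase Acsl5 from 562 ± 133 to 255 ± 21.2 CPM (-1.10 ± 0.07). Of 6 other acyl-chain carriers 1 rose and 4 fell, with a median of -0.35. Dbi, the acyl-CoA binding protein, fell by 0.77 ± 0.07 and Scp2, the sterol carrier protein of peroxisomes, by 0.63 ± 0.12. Acbd3, a Golgi protein with an acyl-CoA binding domain, rose by 0.71 ± 0.05. Both lists thus held called genes in both directions. Scaled by library totals alone 5 of the uptake genes were called higher and 3 lower, and 2 of the carriers higher and 3 lower.

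Of 11 nuclear receptors and coactivators 3 rose and 1 fell, with a median log2 change of 0.08. Pparg rose from 5.79 ± 2.23 to 13.4 ± 5.55 CPM (1.12 ± 0.16), Ppargc1a by 0.38 ± 0.10 and Rxrb by 0.18 ± 0.03, while Ppard fell by 0.32 ± 0.08. Ppara, the receptor best known to act on Fabp1, read 140 ± 43.5 CPM on control and 121 ± 38.5 CPM on MCD, a log2 change of -0.22 ± 0.09 that was not called (edgeR adjusted p = 0.0568). Of 14 PPAR alpha targets of fatty acid oxidation 6 rose and 1 fell, with a median of 0.17, so that the share called was close to the 46.6% of all genes. Cyp4a14, a fatty acid omega-hydroxylase, rose from 218 ± 197 to 1405 ± 724 CPM (3.02 ± 0.38) and the pyruvate dehydrogenase kinase Pdk4 by 1.17 ± 0.28. The pantetheinase Vnn1 rose by 0.67 ± 0.13. Fewer were called within 1 kind of library: 1 target rose and 1 fell within the libraries of low mt-Nd6, and 4 rose and 1 fell within those of high mt-Nd6. With library totals as the only scaling 10 targets rose, as did 8 of the 11 receptors and coactivators, and none of the 11 fell. With the replicate block 4 of the 11 rose and 3 fell, and by DESeq2 3 rose and 4 fell.

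Of 8 genes of lipoprotein assembly and triglyceride synthesis 2 rose and 2 fell, with a median of 0.02. Scaled by library totals alone 5 rose and 1 fell, with a median of 0.27, and without replicate 2 none rose and 2 fell. Mttp, which loads lipid onto apolipoprotein B, fell by 0.48 ± 0.07 and Dgat2, the last enzyme of triglyceride synthesis, by 0.29 ± 0.11. Mogat2 rose by 1.63 ± 0.39 from 0.382 to 1.16 CPM, and Tm6sf2 by 0.23 ± 0.09. Of the 10 other intracellular lipid-binding protein genes 2 were tested in liver, and both rose. Neither was called without replicate 1, and 1 was called without replicate 2, without replicate 3 or without MCD CT04 1 and MCD CT12 2. Fabp12 held 31 counts in all over the 18 control libraries, 14 of which were at 0, and 298 counts over the 18 MCD libraries. In the SCN none of the genes of the 6 lists was called (2, 11, 7, 8, 3 and 11 tested). Fabp3, the heart form, was measured there at 65.0 ± 12.9 CPM on control and 66.1 ± 16.5 CPM on MCD.

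**Figure D5:**
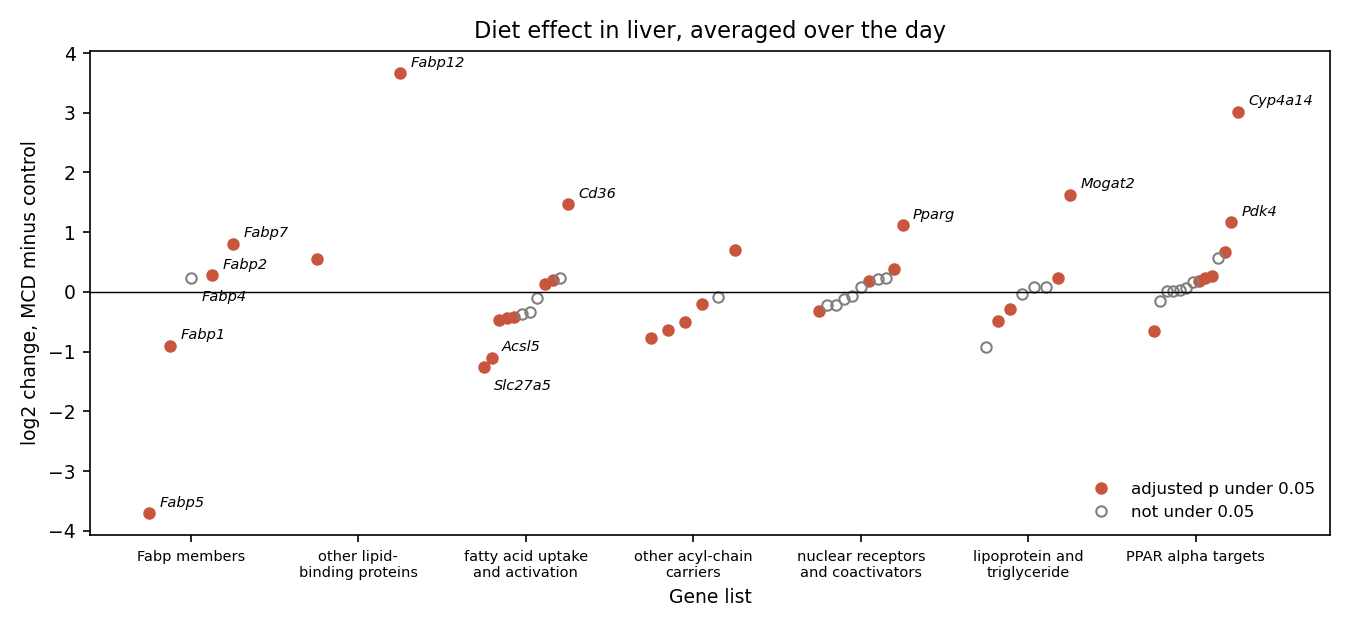
Log2 change (MCD minus control) in liver of every tested gene of the 6 lists and of the 5 members, by list; filled points passed an adjusted p of 0.05. Every list but the pair of lipid-binding protein genes holds genes that rose and genes that fell, and Acsl6, at 0 in 17 of 18 MCD libraries, is not drawn.

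Genes most like each member were ranked by Pearson's r of log2 CPM over the 36 libraries of a tissue, so r includes what the libraries share through diet, time and depth. In liver the 3 nearest to Fabp5 were Gm6166 (r = 0.96), Scd2 (0.96) and Scd1 (0.94) of 13835 genes compared. Scd1 and Scd2 code for stearoyl-CoA desaturases, which make monounsaturated fatty acids. Scd1 fell by 4.22 ± 0.27 and Scd2 by 2.56 ± 0.18 on MCD. Nearest to Fabp1 were Epb41l4b, Urod and Abcd3, a peroxisomal fatty acid transporter (0.92 each). Nearest to Fabp2 was Hadhb (0.69), a subunit of the mitochondrial trifunctional protein, followed by Agpat3 (0.67) and Guk1 (0.65). For Fabp4 they were Mrc2 (0.83), Matn2 (0.82) and Col6a2 (0.81), and for Fabp7 Lyz2 (0.89), the macrophage lysozyme, Slc7a8 (0.89) and Col4a1 (0.88).

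In the SCN, over 15719 genes, Fabp7 was most like Nr1d1 (r = 0.89), the clock gene that codes for REV-ERB alpha, and Kcnip3 (0.88) was also among the 3 nearest. Nr1d1 had a range of 2.14 with the peak at 3.1 h on control and of 2.30 with the peak at 2.2 h on MCD, beside 3.0 and 1.2 h for Fabp7. Fabp5 was most like Gm9844, AW047730 and Ppdpf (0.88, 0.88 and 0.87). Fabp4 was most like Ckm (0.80) and Myh6 (0.80), which code for muscle proteins, and Lpl (0.78). Relative to its mean, Fabp4 in the SCN was also the member with the widest spread within groups, such as 0.121, 1.29 and 3.74 CPM in the control libraries at CT16.

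Gm6166 is a processed pseudogene that shares 68.6% of its stretches of 31 bases with Fabp5 transcripts, so its reads and those of Fabp5 cannot be told apart with certainty. Its counts were 2.62% of those of Fabp5 in control liver and 4.05% on MCD, and 2.14% and 1.69% in the SCN. A second copy, Gm14328, shares 42.6% and held 1.91% and 3.12% in liver. Reads given to such copies are thus a small share of the Fabp5 signal on both diets.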

How the data were processed

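Gene counts of 36 liver and 36 SCN libraries were used as the authors deposited them, as whole numbers per gene without normalization. Per the submitters' processing notes the build was GRCm39 and Trimmomatic, HISAT2, StringTie and DESeq2 were used, with no version or setting given; per the labels' protocols, RNA of the left liver lobe and of laser-microdissected SCN was made into stranded libraries of polyadenylated RNA. Of the columns of samples, 0 were left unused. Each tissue was fitted with edgeR 4.0.16 in R 4.3.3 (TMM factors, filterByExpr with a minimum count of 10, quasi-likelihood test with Benjamini-Hochberg adjustment over all genes tested) in a model of 12 groups of diet and time plus sex. Rhythm tests used the 24 h cosine and sine components of the time means. The joint fit of both tissues had 24 groups and sex within each tissue. The code was tested on simulated counts with known changes. Alternatives were DESeq2 1.42.0, limma 3.58.1 (voom), other scalings and filters, a replicate block, and libraries left out. The members, lists and markers were chosen with earlier results of these data known. All 5 members are named, with up to 3 called genes of each list by the size of the liver change and the 3 genes most like each member (mean of at least 1 CPM). Ppara, Rxrb, Tm6sf2 and Fabp3 were named after their values were seen, and some genes that the rule names are not reported here. The libraries come from separate mice per the series' design text. Low counts limit the precision of Fabp7 in liver and of Fabp4 in the SCN.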

Additional observations from a re-analysis of the deposited data

Results flagged for a closer look

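The diet effect differed between liver and SCN for 2 members by the test of that difference in the joint fit of 72 libraries. For Fabp5 the effect in liver minus the effect in the SCN was -3.67 ± 0.21 on the log2 scale (SE, edgeR adjusted p = 6.36e-19). In liver every MCD library lay below every control library, while in the SCN 16 of 18 MCD libraries lay inside the control range. For Fabp7 the difference was 1.11 ± 0.19 (adjusted p = 6.6e-06), from a rise in liver and a change in the SCN that was not called. In liver the 2 highest Fabp7 values on MCD were those of MCD CT04 1 and MCD CT12 2, the libraries with the most macrophage marker counts. The part of those libraries in the difference between tissues was not tested.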

How the results depend on the processing

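The 5 members were recomputed under each alternative. Leaving out single libraries gave 2196 values, of which 2135 kept their direction and their side of the threshold, and the other alternatives gave 1105, of which 1032 did; the cause of the changes was not tested. With the replicate block the diet effects in liver were -3.74 for Fabp5, -0.91 for Fabp1, 0.83 for Fabp7, 0.28 for Fabp2 and 0.24 for Fabp4, and the block changed no call among them. In liver 13 of 16 pairs of same-numbered groups had deviations correlated above 0.1 (0.07 to 0.43). In the SCN 8 of 16 did (-0.09 to 0.28). The main fits did not pair samples by number all the same. The replicate block above gives the liver diet effects when the numbers are used. The block turned the uncalled sex dependence of the diet effect of Fabp7 in the SCN to -0.01 (-0.01 to 0.27 with libraries or replicates left out) and the uncalled Fabp4 diet effect in liver minus SCN to -0.02 (-0.16 to 0.38 with replicates left out).

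For Fabp7 the range of the rhythm on MCD in liver was 0.96 with limma-voom, 1.17 with library totals, 0.95 with a cosinor on log2 CPM and 0.68 without MCD CT04 1 and MCD CT12 2, none of them called, and 0.72 to 1.44 with libraries or replicates left out. For Fabp5 DESeq2 called it at 1.08. For Fabp1 it was 1.15 to 1.37 with libraries or replicates left out, and the control rhythm of Fabp7 in liver was 1.33 to 1.53. In the SCN the control rhythm of Fabp5 was 0.44 and uncalled without a sex term and 0.37 to 0.51 with libraries left out, and its MCD rhythm 0.41 to 0.57. The liver diet effect of Fabp2 was 0.16 within libraries of low mt-Nd6 and 0.22 to 0.40 with libraries left out. That of Fabp4 was called at 0.49 with library totals.

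Reversals were limited to values that were not called. With library totals these were Fabp2 at CT00 (0.17), Fabp1 at CT08 (0.03) and the liver sex difference of Fabp2 (0.03). With the 2 or 3 libraries that stood apart left out, chosen after the data were seen, they were Fabp4 at CT04 (-0.21 in both), Fabp4 at CT08 (0.13) and the liver sex difference of Fabp7 (0.10 and 0.15). With limma-voom they were the SCN diet effect by sex of Fabp4 (-0.11) and the Fabp4 diet effect in liver minus SCN (-0.15). With libraries or replicates left out, liver ranges were -0.31 to 0.26 for Fabp2 and -0.06 to 0.12 for Fabp4 at CT00, -0.21 to 0.62 for Fabp4 at CT04, and -0.32 to 0.10 for Fabp1, -0.04 to 0.55 for Fabp7 and -0.45 to 0.10 for Fabp4 at CT08. The liver sex differences ran from -0.12 to 0.02 for Fabp7 and from -0.07 to 0.05 for Fabp2, and the diet effect by sex of Fabp2 from 0.00 to 0.31. In the SCN the diet effect ran from -0.10 to 0.05 for Fabp5 and from -0.06 to 0.32 for Fabp4.

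Called genes for the diet effect in liver numbered 9426, and 4583 and 5096 within the kinds of low and high mt-Nd6 and 6386 to 7821 with a replicate left out. Single libraries were not left out of the joint fit of both tissues. Counts of Fabp7 in liver (50 to 916) and of Fabp4 in the SCN (9 to 304) limit the precision of both.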
